A study of Bos taurus with 12 samples.

Results

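Transcripts that the oocyte stores for itself and for the early embryo were followed through 5 genes: NLRP5, OOEP, KPNA7, GTSF1 and UCHL1. Every probe set whose array annotation gives 1 of these symbols and no other was taken. Each gene has 1 such probe set, so 5 of the 24128 probe sets on the array, and 5 of 9155 genes named by them, are described. Their Entrez Gene identifiers are 493717 (NLRP5), 507401 (OOEP), 789280 (KPNA7), 506864 (GTSF1) and 514394 (UCHL1). The rule that picks their probe sets uses no measured value.

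The arrays, 12 in all, held RNA of Japanese Black cattle oocytes in 4 groups of 3: adult cows at the germinal vesicle (GV) stage, prepubertal heifers aged 9 to 12 months at GV, and the same kinds of donor at metaphase II (MII). Cumulus-oocyte complexes came from follicles of 2 to 8 mm. GV oocytes were used right after aspiration, and MII oocytes were picked by their polar body once 20 to 22 h of culture in medium with serum had passed. Each array represents 50 pooled oocytes stripped of cumulus cells, whose RNA was amplified before labelling. Ovaries of cows came from an abattoir and those of heifers were removed on farms, so donor age and the way of collection cannot be told apart. The MII groups differ from the GV groups in both meiotic stage and time in culture. Pools are labelled as biological replicates without naming animals, and p-values cover only the spread between these pools.

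During growth an oocyte accumulates mRNA, and in its last phase transcription falls silent. Maturation from GV to MII, and the first cleavages of the embryo, then run on these stores, which are translated, gain or lose poly(A) tails, or are degraded. NLRP5 (also MATER) and OOEP (also FLOPED) encode subunits of the subcortical maternal complex, a protein assembly under the oocyte membrane that mouse embryos need to pass early cleavage. KPNA7 is an importin alpha of oocytes and early embryos, which binds nuclear localization signals and carries proteins into the nucleus together with importin beta. GTSF1 is a small zinc finger protein that works with PIWI proteins, which use piRNAs to silence transposons in germ cells. UCHL1 is a deubiquitinating enzyme abundant in oocytes and also in neurons.

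Values are log2 signals as deposited. They compare a probe set between arrays and not 1 gene with another. Of the 12 arrays, 9 carried a full set of oocyte markers and 3 did not: GV adult replicate 1, GV prepubertal replicate 1 and MII prepubertal replicate 1. The marker values that follow are of genes outside the 5 described here. The split itself was chosen with earlier results of these data known. The median of the 6 measured oocyte markers (of 12 listed) minus the array's own median was 6.38 to 8.78 log2 units on the 9 arrays and -0.45 to 0.82 on the 3, and no oocyte marker read 0. All 6 lay above the array's median on the 9 arrays, and 4, 1 and 3 of 6 on the 3 in the order named. KIT, the receptor for kit ligand, stayed above the array's median on all 3 arrays but was lower there too, at 11.16, 11.87 and 11.48 against 12.86 to 15.07 on the 9. On GV adult replicate 1, with a median of 8.30, GDF9 (9.29), ZP2 (10.05) and ZP3 (8.95) also lay above it. The corresponding ranges for 18 cumulus and granulosa markers were -1.96 to 0.80 and 0.06 to 2.86, for 12 theca and stroma markers -2.51 to -0.41 and 0.20 to 2.77, and for 9 blood cell markers -1.46 to -0.17 and -1.30 to 0.13. The summed linear signal of the cumulus list ran from 8407 to 26825 on the 9 arrays. It was 184440 and 301470 on GV and MII prepubertal replicate 1. On GV adult replicate 1 it was 8750, within the range of the 9, as was the cumulus median of 0.06. The highest Spearman correlation with another array was 0.27 for GV adult replicate 1. It was 0.66 for both prepubertal replicate 1 arrays, with each other, and 0.50 to 0.79 for the 9. MII adult replicate 3 was the lowest of the 9, at 0.50, and GV adult replicate 3 came next, at 0.61. The part of the 3 arrays in the results was not tested, and results are given over all 12 arrays and over the 9.

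KPNA7 was the member whose GV and MII signals separated fully once the 3 arrays were set aside. At GV, adult pools read 8.78, 14.67 and 14.86 and prepubertal pools 7.87, 13.81 and 14.49 (replicates 1 to 3). At MII, adult pools read 15.92, 15.40 and 16.90 and prepubertal pools 10.27, 15.25 and 15.69. The 3 low values (8.78, 7.87 and 10.27) are those of the arrays without an oocyte profile, and among the other 9 every MII value exceeded every GV value. MII values lay above GV values without overlap for 3.82% of the 14409 probe sets tested (within adults for 15.0% and within prepubertal donors for 19.4%). Every pool is labelled as 50 oocytes. Without the extreme 2% of values at either end, every array has a mean linear signal of about 500. A difference in signal is therefore relative to the other RNA on the array, and amounts per oocyte were not measured.

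Over the 9 arrays KPNA7 was 1.31 log2 units higher at MII than at GV, averaged over both ages (SE 0.29; 95% interval 0.68 to 1.94), or 2.49-fold. With limma's moderated test and Benjamini-Hochberg adjustment over all 14409 probe sets, the adjusted p was 0.0556, just short of the threshold of 0.05, which 0.722% of probe sets passed. The difference was 1.31 in adults (SE 0.40) and 1.32 in prepubertal donors (SE 0.44), with limma adjusted p of 0.201 and 0.642. The difference between these 2 changes was 0.02 (95% interval -1.24 to 1.27). After quantile normalization of the 9 arrays the averaged change was 1.46 (SE 0.15, limma adjusted p = 0.00165) and passed the threshold, together with 1.08% of probe sets, and so did the change in adults (1.44, adjusted p = 0.0179; 0.111% of probe sets). With each array centred on its median the averaged change was 1.76 (limma adjusted p = 0.184).

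Single arrays decided on which side of the threshold KPNA7 fell. Leaving out each of the 9 arrays in turn gave changes of 1.11 to 1.48 and limma adjusted p from 0.0282 to 0.306. The threshold was passed without MII adult replicate 2 (1.48, adjusted p = 0.0282; 0.527% of probe sets) and without MII adult replicate 3 (1.11, adjusted p = 0.0293; 2.19% of probe sets), the array with the highest KPNA7 signal. Over all 12 arrays the change was larger and far less certain, 2.49 (SE 1.38, limma adjusted p = 0.511), and no probe set passed, while 10.7% had an unadjusted limma p under 0.05.

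**Figure D1:**
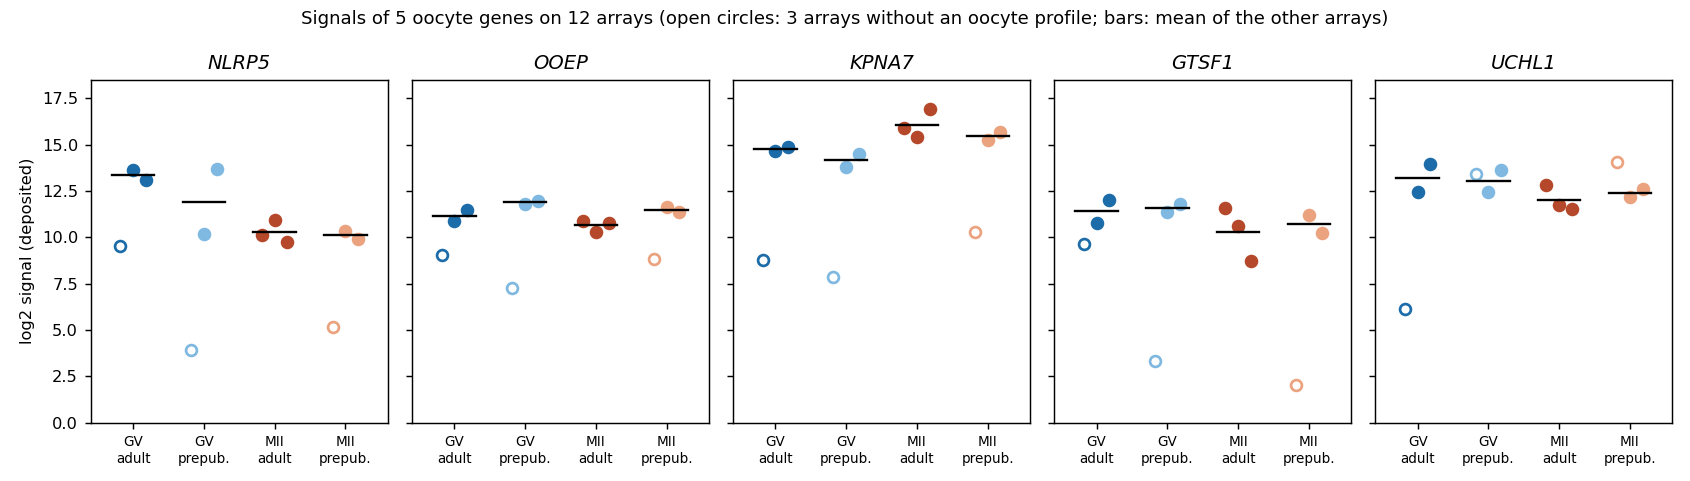
Deposited log2 signal of the 5 genes on each of the 12 arrays, by group (prepub., prepubertal); open circles are the 3 arrays without an oocyte profile and bars are means of the remaining 2 or 3 arrays of a group. KPNA7 lies at 13.81 to 14.86 at GV and at 15.25 to 16.90 at MII on the filled points, and the open circles of KPNA7, NLRP5 and OOEP lie below all their filled points.

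NLRP5 had the widest span among the pools with an oocyte profile. At GV, adult pools read 9.51, 13.61 and 13.10 and prepubertal pools 3.90, 10.17 and 13.69. At MII, adult pools read 10.15, 10.94 and 9.77 and prepubertal pools 5.17, 10.36 and 9.90. Of the 4 GV pools with an oocyte profile, 3 lay between 13.10 and 13.69 and 1, GV prepubertal replicate 2, lay at 10.17, inside the MII range of 9.77 to 10.94. In adults the MII values lay below both GV values, as they did for 13.1% of probe sets over these arrays.

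Averaged over both ages, NLRP5 over the 9 arrays read 2.43 log2 units less at MII than at GV (log2 difference -2.43, SE 0.69; 95% interval -3.90 to -0.96), or 5.39-fold less, with a limma adjusted p of 0.125. It did not pass the threshold. The adult difference was -3.07 (SE 0.93, limma adjusted p = 0.200) and the prepubertal one -1.80 (SE 1.02, adjusted p = 0.760). The prepubertal value rested on single pools: it was -3.56 without GV prepubertal replicate 2 and -0.04 without GV prepubertal replicate 3. Without GV prepubertal replicate 2 the averaged difference was -3.31 (limma adjusted p = 0.0766), and over all 12 arrays it was -1.28 (SE 1.34, adjusted p = 0.714).

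OOEP, which encodes the partner of NLRP5 in the subcortical maternal complex, varied least among the members. Its GV values were 9.06, 10.86 and 11.47 in adult and 7.29, 11.81 and 11.98 in prepubertal pools. Its MII values were 10.90, 10.29 and 10.75 in adult and 8.84, 11.62 and 11.37 in prepubertal pools. On the 9 arrays all values fell between 10.29 and 11.98, with an SD of 0.56 against 1.66 for NLRP5, so the pools were more alike in OOEP than in NLRP5. The averaged difference between MII and GV was -0.46 over the 9 arrays (95% interval -1.57 to 0.65, limma adjusted p = 0.730) and 0.22 over 12 (-1.70 to 2.13). The interval still allows a loss of up to 1.57 log2 units. Of the 9 subcortical maternal complex genes listed, NLRP5 and OOEP were the 2 measured under their symbols.

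GTSF1 was low on the prepubertal arrays without an oocyte profile and varied among the other pools. At GV it read 9.61, 10.77 and 12.04 in adult pools and 3.35, 11.39 and 11.80 in prepubertal pools. At MII it read 11.56, 10.59 and 8.74 in adult pools and 2.01, 11.20 and 10.25 in prepubertal pools. Its lowest value among the 9 arrays was 8.74, in MII adult replicate 3, and the GV and MII ranges overlapped. In prepubertal donors alone both MII values lay below both GV values, as did those of OOEP and of 20.8% of probe sets. The averaged difference was -0.99 over the 9 arrays (SE 0.68; 95% interval -2.44 to 0.46, limma adjusted p = 0.544) and -0.60 without MII adult replicate 3. Over all 12 arrays it was -0.77 (SE 1.51).

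UCHL1 parted from the other members on the prepubertal replicate 1 arrays. At GV it read 6.13, 12.45 and 13.95 in adult pools and 13.43, 12.46 and 13.63 in prepubertal pools. At MII it read 12.85, 11.72 and 11.52 in adult pools and 14.04, 12.19 and 12.61 in prepubertal pools. Only GV adult replicate 1 was low. Of the prepubertal replicate 1 arrays, the MII one gave the highest signal of all 12 and the GV one lay within the range of the other pools. On these arrays (GV, then MII) 12 and 13 of 18 cumulus and granulosa markers lay above the array's median. MII prepubertal replicate 2, with an oocyte profile, also had 13. The cumulus list was split: STAR read 5.10 and 8.74 on the prepubertal replicate 1 arrays, against 11.56 to 13.58 on the 9 arrays. Of 12 theca and stroma markers, 11 and 11 lay above the median, against 2 to 5 on the 9 arrays. The exception was CYP17A1, at 4.34 and 1.14. GV adult replicate 1, where UCHL1 was low, had 7 of the 12. A link with UCHL1 was not tested. Over the 9 arrays the averaged difference between MII and GV was -0.90 (SE 0.49; 95% interval -1.94 to 0.13, limma adjusted p = 0.424). Over 12 arrays its sign was turned, at 0.48 (SE 1.09, adjusted p = 0.877).

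Counted together, none of the 5 members passed the limma test for a change with maturation at an adjusted p under 0.05, over 12 or over 9 arrays; over the 9, 0.722% of probe sets passed for the average and 0.118% in adults. At an unadjusted limma p under 0.05, over the 9 arrays, KPNA7 and NLRP5 passed for the averaged change (14.1% of all probe sets) and in adults (11.4%), and KPNA7 in prepubertal donors (6.99%). Over 12 arrays 0 of 5 did, where 10.7%, 7.93% and 3.41% of probe sets passed for the average, in adults and in prepubertal donors. The change in prepubertal donors was set against that in adults, and this difference passed for none of the 5, at an adjusted or at an unadjusted limma p under 0.05 (background at the latter 3.06% over 9 arrays and 1.21% over 12). The median of the 5 averaged changes was -0.90 over the 9 arrays and 0.22 over 12, against -0.07 and -0.20 for all probe sets.

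**Figure D2:**
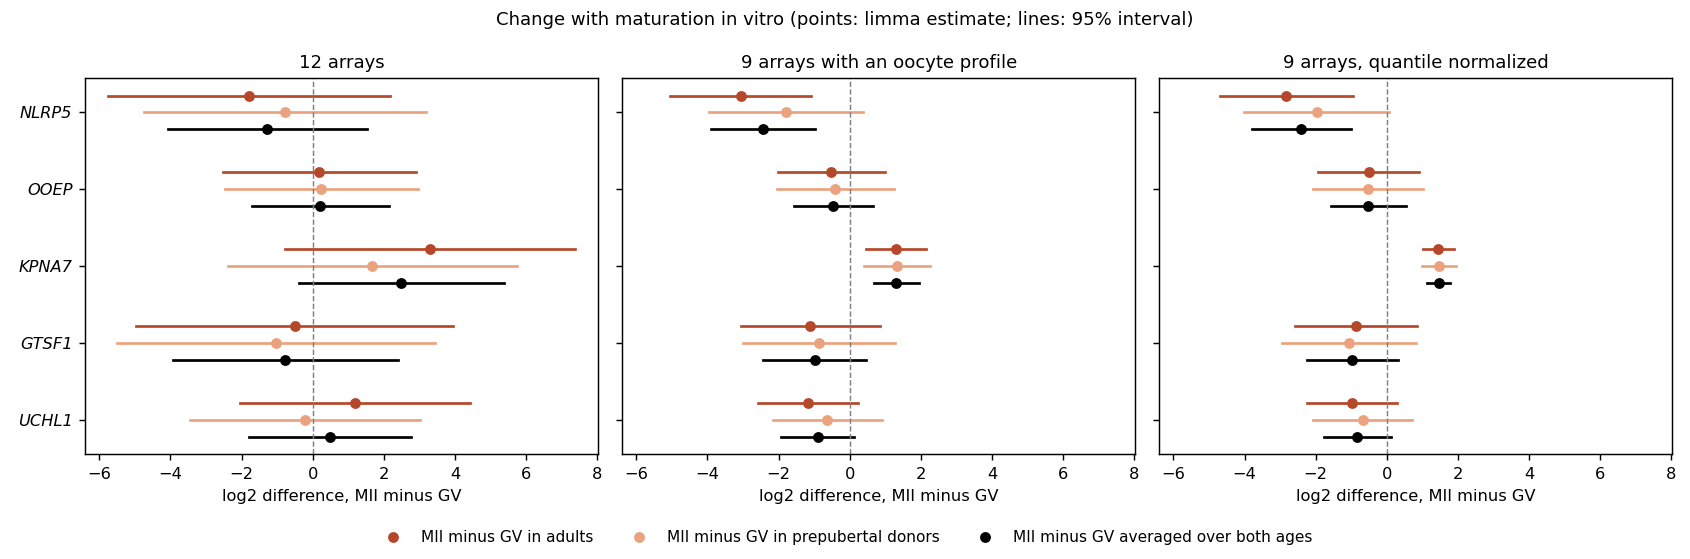
MII minus GV in log2 units for each gene, in adults, in prepubertal donors and averaged over both, with points for the limma estimate and lines for its 95% interval, over 12 arrays (left), 9 arrays (middle) and 9 arrays after quantile normalization (right). For KPNA7 the averaged interval is -0.39 to 5.37 over 12 arrays and 0.68 to 1.94 over 9; for NLRP5 it is -4.08 to 1.52 and -3.90 to -0.96, and the intervals of OOEP, GTSF1 and UCHL1 include 0 in all 3 panels.

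The 5 genes were set against the arrays without an oocyte profile one by one, as a description of those arrays. KPNA7 lay 6.44, 7.35 and 4.96 log2 units below its mean over the 9 arrays, in GV adult, GV prepubertal and MII prepubertal replicate 1. NLRP5 lay 1.79, 7.40 and 6.13 below and OOEP 2.16, 3.94 and 2.39 below. GTSF1 lay 1.31, 7.58 and 8.92 below. All 4 were thus lower on each of the 3 arrays, with NLRP5 and GTSF1 least reduced on GV adult replicate 1. That array had the highest median, and after centring each array on its median its gaps grew, to -3.91 for NLRP5, -4.28 for OOEP, -8.56 for KPNA7 and -3.43 for GTSF1. The centred gaps on the prepubertal GV and MII arrays were -8.84 and -6.46 for NLRP5 and -9.02 and -9.25 for GTSF1, still the larger ones. UCHL1 lay 6.47 below on GV adult replicate 1, and 0.83 and 1.44 above on the prepubertal arrays, against an SD of 0.80 over the 9. After centring, UCHL1 in GV prepubertal replicate 1 was -0.61 and in MII prepubertal replicate 1 1.11, so the sign of the former depended on the scaling.

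**Figure D3:**
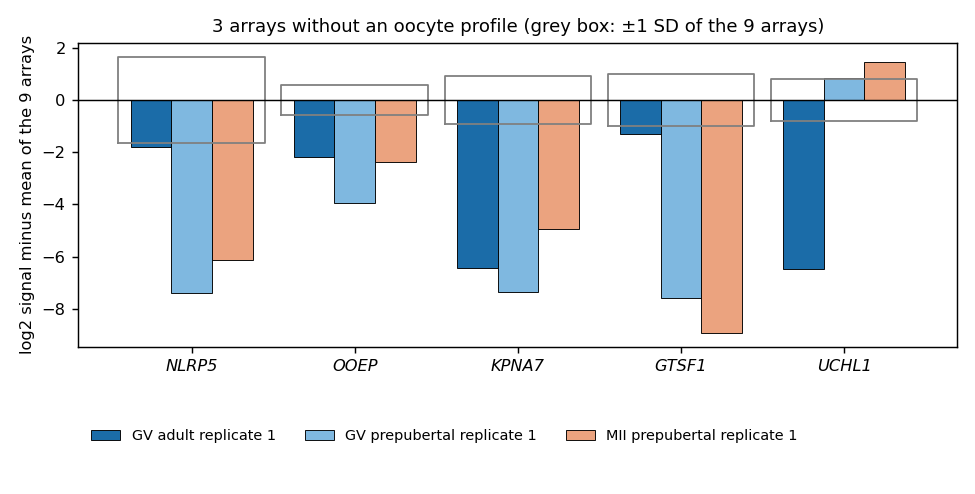
Log2 signal on each of the 3 arrays without an oocyte profile minus the mean of the other 9 arrays, for each gene; grey boxes span 1 SD of the 9 arrays on either side of their mean. Bars for NLRP5, OOEP, KPNA7 and GTSF1 all point down, from -1.31 to -8.92, and UCHL1 is down on GV adult replicate 1 and up on both prepubertal arrays, the GV one turning to -0.61 after median centring.

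Adult and prepubertal oocytes were compared at each stage to ask whether the stores differ with the age of the donor. OOEP was the member whose pools separated by age at both stages on the 9 arrays: prepubertal values of 11.81 and 11.98 against 10.86 and 11.47 in adults at GV, and 11.62 and 11.37 against 10.90, 10.29 and 10.75 at MII. KPNA7 separated at GV, where prepubertal pools read 13.81 and 14.49 and adult pools 14.67 and 14.86. Such separation, in either direction, was found for 27.3% of all probe sets at GV and 19.1% at MII, so with so few pools it is common.

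None of the 5 passed the test for age. At GV the OOEP difference, prepubertal minus adult, was 0.73 (95% interval -0.91 to 2.38) and at MII 0.85 (-0.65 to 2.35) over the 9 arrays. For KPNA7 it was -0.62 (-1.55 to 0.31) and -0.60 (-1.45 to 0.25), and for NLRP5 -1.42 (-3.59 to 0.74) and -0.15 (-2.13 to 1.83). GTSF1 differed by 0.20 (-1.94 to 2.33) and 0.43 (-1.52 to 2.38), and UCHL1 by -0.16 (-1.69 to 1.37) and 0.37 (-1.03 to 1.77). The limma adjusted p-values rounded to 1.0 in each case, and no probe set of the array passed, with 4.64% at GV and 2.56% at MII at an unadjusted p under 0.05. Each of these intervals reaches past a 2-fold difference in at least 1 direction, so the stores were not shown to be alike.

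Over all 12 arrays, the low ones included, the age differences had wider intervals. NLRP5 read -2.82 at GV and -1.81 at MII, and UCHL1 2.33 and 0.92, each with an SE between 1.54 and 1.89. OOEP read -0.10 and -0.04, opposite in sign to the 9 arrays. On 12 arrays the ages overlapped for all 5 members at both stages, while 5.68% of probe sets at GV and 9.96% at MII were free of overlap. Again no probe set passed (2.51% and 2.66% at an unadjusted limma p under 0.05).

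**Figure D4:**
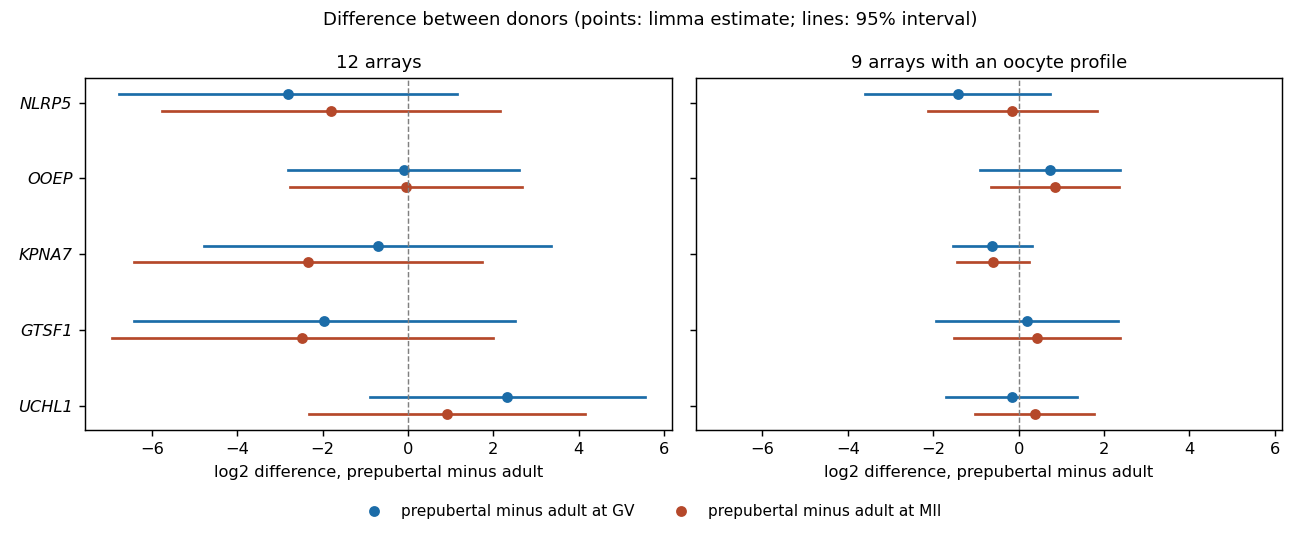
Prepubertal minus adult in log2 units for each gene at GV and at MII, with limma estimates and 95% intervals, over 12 arrays (left) and 9 arrays (right). Every interval includes 0; over 9 arrays OOEP lies at 0.73 and 0.85 and KPNA7 at -0.62 and -0.60.

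Other nuclear transport genes were examined beside KPNA7. The list of 25 holds importins and also exporters (XPO1, CSE1L) and genes of the Ran cycle (such as RAN and RCC1), so its counts are not for import receptors alone. Of the 25, 20 besides KPNA7 were measured and tested. Of these 1, KPNA2, passed the test over the 9 arrays, as a fall, and none passed as a rise, where 0.722% of all probe sets passed. At MII 8 of the 20 read higher and 12 lower than at GV, with a median difference of -0.43 against -0.07 over all probe sets, 48.2% of which were higher. KPNA2 is a widely expressed importin alpha that carries the same class of nuclear localization signals as KPNA7. At GV it read 6.31, 14.81 and 15.39 in adult and 12.49, 14.88 and 15.26 in prepubertal pools. At MII it read 13.55, 13.11 and 14.03 in adult and 12.18, 13.73 and 13.79 in prepubertal pools. On the 9 arrays every MII value lay below every GV value, the reverse of KPNA7, a separation shared by 3.53% of probe sets.

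The KPNA2 difference was -1.42 over the 9 arrays (SE 0.29, limma adjusted p = 0.0438) and -1.31 after quantile normalization (adjusted p = 0.0137). It did not pass after median centring (-0.97, limma adjusted p = 0.456), and over all 12 arrays, with GV adult replicate 1 at 6.31, its sign was turned (0.21, adjusted p = 0.961). Leaving out 1 of the 9 arrays kept it between -1.57 and -1.27, and it passed in 1 of the 9 cases, without MII adult replicate 3 (-1.54, adjusted p = 0.00877). IPO4, an importin beta type receptor, read 2.76 log2 units more at MII (limma adjusted p = 0.201), without overlap, as for 3.82% of all probe sets with MII higher. The genes named here were picked by smallest p in this same comparison. IPO4 signals were low at GV, 4.62 to 7.29 on the 9 arrays, whose medians ran from 5.64 to 7.52. IPO8, of the same family, read -2.30 (adjusted p = 0.415), also from low signals, 5.27 to 8.90 at GV and 2.04 to 6.05 at MII. CSE1L, the exporter that returns importin alpha to the cytoplasm, read -0.89 (adjusted p = 0.431).

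**Figure D5:**
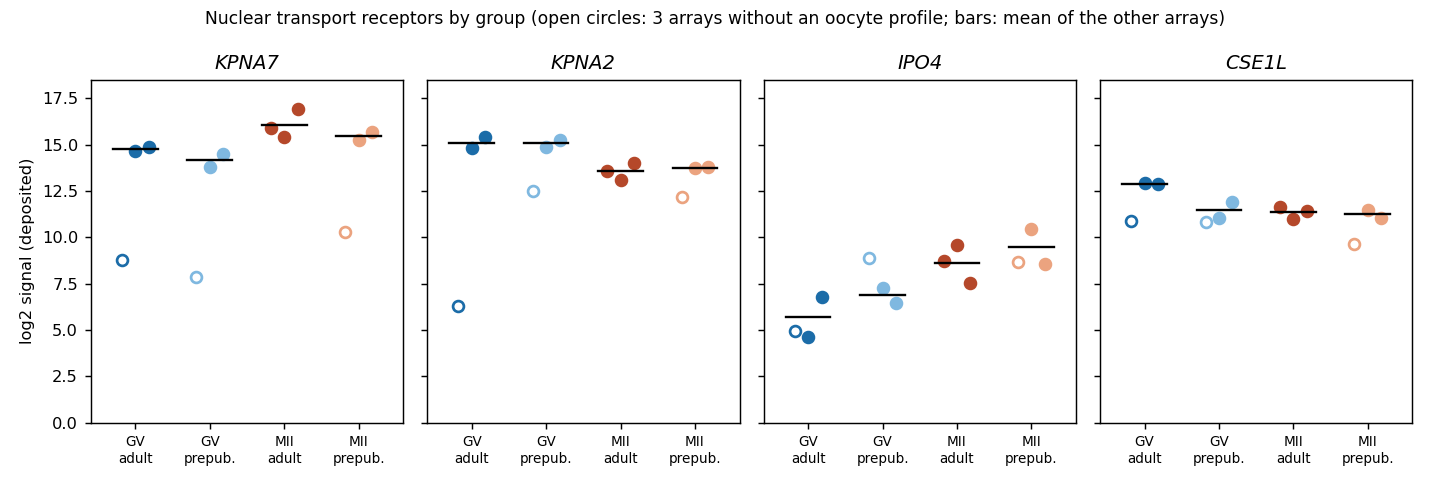
Deposited log2 signal of KPNA7 and of 3 other nuclear transport receptors on each array, by group (prepub., prepubertal); open circles are the 3 arrays without an oocyte profile and bars are means of the other arrays. On the filled points KPNA7 runs from 13.81 to 14.86 at GV and 15.25 to 16.90 at MII, and KPNA2 from 14.81 to 15.39 at GV and 13.11 to 14.03 at MII.

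Around GTSF1, 8 other genes of the piRNA pathway list of 29 were measured, and 3 were higher and 5 lower at MII over the 9 arrays (median -0.31). The chaperone gene HSP90AA1, which takes part in loading small RNAs besides its many other roles, fell by 2.02 log2 units (SE 0.37, limma adjusted p = 0.0247), but its second probe set read 1.38 in the opposite direction (adjusted p = 0.116), so the gene has no settled direction here. The fall did not pass after median centring of the 9 arrays (-1.57, limma adjusted p = 0.310) or over all 12 (-0.46, adjusted p = 0.897), and leaving out 1 of the 9 arrays gave adjusted p from 0.00575 to 0.151. PRMT5, the arginine methyltransferase that marks PIWI proteins among other substrates, read -3.31 (limma adjusted p = 0.116). Its stages did not overlap, as for 3.53% of all probe sets with MII lower, but the genes named here were picked by smallest p in this same comparison. MAEL, a germ granule protein, read 0.66 (adjusted p = 0.403) on the probe set with the highest mean signal and between -0.03 and 0.30 on the other 2. TDRD3, a Tudor domain protein, read 1.55 (adjusted p = 0.447).

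Around UCHL1, 5 of 10 listed ubiquitin genes were measured, 3 higher and 2 lower at MII, and none passed the test. UBA1, the main ubiquitin-activating enzyme, read 1.57 log2 units more at MII (SE 0.44, limma adjusted p = 0.118), with GV values of 10.93 to 12.06 and MII values of 12.66 to 13.32 on the 9 arrays. Such separation with MII higher was found for 3.82% of all probe sets, and the genes named here were picked by smallest p in this same comparison. UCHL3, the close relative of UCHL1, read 1.35 (adjusted p = 0.246), opposite in sign to the -0.90 of UCHL1, a contrast between the genes that was not itself tested. UBA6, the other ubiquitin-activating enzyme, read -1.57 (adjusted p = 0.593) on 1 probe set and 2.27 on the second. BAP1, a nuclear deubiquitinase, read -1.26 (limma adjusted p = 0.640). Signals of BAP1 (1.76 to 8.26) and of the first UBA6 probe set (4.16 to 9.85) lay around the medians of the 9 arrays, 5.64 to 7.52.

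Of 34 other maternal-effect and oocyte genes listed, 3 were measured under their symbols, and none passed. MOS, the kinase that holds the mature egg in metaphase, read 1.04 (limma adjusted p = 0.389). CNOT6L, a deadenylase of maternal mRNA, read 1.03 (adjusted p = 0.492), and TDRD6, a germ cell Tudor protein, -0.82 (adjusted p = 0.786). TDRD6 signals were low, 3.05 to 7.31 on the 9 arrays, whose medians ran from 5.64 to 7.52.

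The probe sets most like each member were found by Pearson correlation of log2 signals over the 9 arrays, among 8985 probe sets with 1 symbol. The points share arrays, stage and the level of the array, so these values describe only this set. Probe sets with r over 0.9 numbered 41 for GTSF1, 31 for KPNA7, 6 each for NLRP5 and UCHL1, and 3 for OOEP. Those of KPNA7 were led by ATP2A2 (0.96), the calcium pump of the endoplasmic reticulum, TENT5B (0.96), TFE3 (0.95) and GLUL (0.95). Without the 2 of the 9 arrays farthest from KPNA7's median these 4 gave 0.92, 0.87, 0.86 and 0.87, and over all 12 arrays 0.79, 0.94, 0.84 and 0.86. All 4 thus kept a positive correlation with the low arrays included, although ATP2A2 read 12.52 and 12.80 on the prepubertal ones, well above its 6.48 on GV adult replicate 1.

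For UCHL1 the closest was CCNB2 (r = 0.98), a cyclin of the kinase that drives meiotic division, followed by COX19 (0.92), NCL (0.92) and RPL31 (0.91). Without the 2 of the 9 arrays farthest from UCHL1's median, r was 0.96, 0.73, 0.66 and 0.92 in this order. CCNB2 read 13.21 to 14.52 at GV and 12.37 to 13.38 at MII on the 9 arrays. On the prepubertal replicate 1 arrays it read 9.13 and 7.41, where UCHL1 read 13.43 and 14.04, and r over all 12 arrays was 0.09. On GV adult replicate 1 both genes were low, at 10.83 for CCNB2 and 6.13 for UCHL1, so they parted on the prepubertal replicate 1 arrays only.

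For NLRP5 the closest were CAND1 (0.94), POLR1E (0.93), RPL15P (0.92) and ARL14EP (0.92), and for OOEP CCNG1 (0.91), ST3GAL4 (0.91), NAAA (0.91) and SCG5 (0.89). For GTSF1 they were MRPL58 (0.98), MGA (0.97), APEX2 (0.96) and MCOLN2 (0.95). These 4 read 2.17, 2.22, 2.82 and 3.83 on MII adult replicate 3, where GTSF1 was also lowest. Without the 2 of the 9 arrays farthest from the member's median, r was 0.93, 0.90, 0.90 and 0.78 for GTSF1's neighbours. It was then 0.81 to 0.88 for those of NLRP5 and 0.76 to 0.87 for those of OOEP. With all 12 arrays, r for these 3 members' neighbours spread from -0.51 for ST3GAL4 and -0.40 for SCG5, through -0.01 for MRPL58 and 0.13 for CAND1, to 0.71 for both POLR1E and APEX2 and 0.81 for MCOLN2. No list of 4 held another member. Among the members themselves, r over the 9 arrays ran from -0.72 between KPNA7 and GTSF1 to 0.79 between GTSF1 and UCHL1, and was 0.21 between NLRP5 and OOEP, whose proteins share a complex.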

How the data were processed

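The authors deposited log2 signals of 12 Affymetrix bovine arrays made with MAS5, per the submitters' processing notes, which name no version. They were used as deposited, without detection calls. Control probe sets (112) were left out, and 14409 with a mean above the 40th percentile (5.57 log2) were kept, all 5 described here among them; 99.7% of the annotation's Entrez identifiers matched a table of cattle genes. A model of the 4 group means was run in limma 3.58.1 (R 4.3.3) with an intensity trend (8 residual degrees of freedom with 12 arrays, 5 with 9), after a test on simulated data, with Benjamini-Hochberg adjustment over all probe sets. The main design holds 12 arrays; the 9 arrays are an alternative. For a gene with several probe sets the one with the highest mean is given. All 5 genes were named, up to 4 per list by smallest p over the 9 arrays, and 4 per gene by correlation. Genes, lists, tests and the 9 arrays were chosen with earlier results of these data known. Same-numbered prepubertal GV and MII arrays deviated together (0.61, 0.15 and 0.31), each over the bound of 0.1 for pairs, though the labels state no pairing. Replicates 2 and 3 correlated as highly across numbers (0.14 and 0.31), and the highest value joins the replicate 1 arrays, both without an oocyte profile.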

Additional observations from a re-analysis of the deposited data

How the results depend on the processing

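Over all 12 arrays limma called no probe set in any of the 6 comparisons (4 group comparisons, their difference and the average of both maturation changes). At unadjusted p under 0.05 with at least a 2-fold change the counts were 362 for age at GV, 383 for age at MII, 1143 for maturation in adults, 492 in prepubertal donors, 174 for the difference of the maturation changes and 1537 for their average. For age at GV, age at MII, maturation in adults, in prepubertal donors and the average, array weights gave 1, 1, 96, 5 and 855. For maturation in adults and the average, 9 arrays gave 17 and 104, and 9 quantile-normalized arrays 16 and 156. For maturation in adults, in prepubertal donors and the average, 8 arrays (without MII adult replicate 3 as well) gave 69, 5 and 315. The replicate block gave 7 in adults and 15 for the average within age, and 0 in the prepubertal groups, where KPNA7 read 1.68 (SE 0.47, limma adjusted p = 0.315) with the block; it changed no call of the 5 genes. Leaving out each array, of the 12 or of the 9, gave 0 to 2 for age at GV, 0 to 69 in adults, 0 to 5 in prepubertal donors and 0 to 315 for the average. Of the 9, the average gave 0 without GV prepubertal replicate 2, 1 and 2 without MII prepubertal replicates 3 and 2, 15 without GV prepubertal replicate 3, 45 and 49 without GV adult replicates 2 and 3, 60 and 76 without MII adult replicates 1 and 2 and 315 without MII adult replicate 3. Of the 12, it gave 9 without MII prepubertal replicate 1.

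Among the alternatives, the averaged change kept its sign in 34 of 34 for KPNA7 and for NLRP5. KPNA7 passed the threshold in 4 of these, of which 2 are the same 8 arrays, and NLRP5 in none (lowest limma adjusted p = 0.0766). The signs of small differences turned under the settings that follow, each value a log2 difference opposite in sign to that over 12 arrays; the cause was not tested. Over 9 arrays, the age difference at GV was 0.73 for OOEP, 0.20 for GTSF1 and -0.16 for UCHL1, and the age difference at MII was 0.85 for OOEP and 0.43 for GTSF1. Here the change in adults was -0.52 for OOEP and -1.17 for UCHL1, and the change in prepubertal donors was -0.40 for OOEP. Here the difference of the maturation changes was 0.015 for KPNA7, 0.23 for GTSF1 and 0.53 for UCHL1, and the averaged change was -0.46 for OOEP, -0.90 for UCHL1 and -1.42 for KPNA2. Over 8 arrays, the age difference at GV was 0.73 for OOEP, 0.20 for GTSF1 and -0.16 for UCHL1, and the age difference at MII was 0.90 for OOEP. Here the change in adults was -0.57 for OOEP and -0.91 for UCHL1, and the change in prepubertal donors was -0.40 for OOEP. Here the difference of the maturation changes was 0.43 for KPNA7 and 0.28 for UCHL1, and the averaged change was -0.49 for OOEP, -0.78 for UCHL1 and -1.54 for KPNA2. With 9 quantile-normalized arrays, the age difference at GV was 0.88 for OOEP and 0.34 for GTSF1, and the age difference at MII was 0.87 for OOEP and 0.13 for GTSF1. Here the change in adults was -0.51 for OOEP and -0.99 for UCHL1, and the change in prepubertal donors was -0.52 for OOEP. Here the difference of the maturation changes was -0.012 for OOEP, 0.028 for KPNA7 and 0.31 for UCHL1, and the averaged change was -0.52 for OOEP, -0.83 for UCHL1 and -1.31 for KPNA2. With 9 median-centred arrays, the age difference at GV was 0.40 for OOEP and -0.49 for UCHL1, and the age difference at MII was 1.22 for OOEP, 0.22 for NLRP5 and 0.80 for GTSF1. Here the change in adults was -0.41 for OOEP and -1.07 for UCHL1, and the change in prepubertal donors was 0.16 for UCHL1. Here the difference of the maturation changes was 0.71 for KPNA7, 0.93 for GTSF1 and 1.23 for UCHL1, and the averaged change was -0.0084 for OOEP, -0.45 for UCHL1 and -0.97 for KPNA2. With array weights, the age difference at MII was 0.69 for OOEP, and the change in adults was -0.25 for OOEP and -0.045 for UCHL1. Here the change in prepubertal donors was 0.50 for NLRP5 and 0.55 for GTSF1, and the difference of the maturation changes was 0.86 for KPNA7 and 0.67 for GTSF1. Here the averaged change was 0.21 for GTSF1, -0.22 for UCHL1 and -0.77 for KPNA2. With median centring of 12 arrays, the age difference at MII was 0.088 for OOEP, and the change in adults was 0.28 for GTSF1. Here the change in prepubertal donors was 0.13 for NLRP5 and 0.68 for UCHL1, and the averaged change was 0.076 for GTSF1, 0.14 for CSE1L and 0.39 for HSP90AA1. With quantile normalization of 12 arrays, the age difference at GV was 0.14 for OOEP, and the change in adults was 0.18 for GTSF1. Here the difference of the maturation changes was -0.23 for OOEP. With the letter b of some titles as a covariate, the change in adults was -1.13 for OOEP and -0.60 for UCHL1, and the change in prepubertal donors was -1.06 for OOEP and -0.58 for KPNA7. Here the averaged change was -1.10 for OOEP, -1.30 for UCHL1, -1.93 for KPNA2, -0.32 for MAEL, -0.54 for MOS and 0.17 for TDRD6. With 1 array left out, of the 12 or of the 9, the age difference at GV ran from -0.91 to 1.43 for OOEP, from -5.04 to 0.34 for NLRP5, from -2.71 to 1.38 for KPNA7, from -3.44 to 0.83 for GTSF1 and from -0.91 to 3.88 for UCHL1. The age difference at MII ran from -0.54 to 0.97 for OOEP, from -2.75 to 0.18 for NLRP5 and from -4.17 to 1.06 for GTSF1. The change in adults ran from -0.82 to 0.69 for OOEP, from -1.74 to 0.27 for GTSF1 and from -1.92 to 2.74 for UCHL1. The change in prepubertal donors ran from -1.29 to 1.13 for OOEP, from -3.56 to 1.44 for NLRP5, from -0.41 to 3.41 for KPNA7, from -3.78 to 1.88 for GTSF1 and from -1.22 to 0.15 for UCHL1. The difference of the maturation changes ran from -1.47 to 0.95 for OOEP, from -1.67 to 3.23 for NLRP5, from -3.72 to 0.43 for KPNA7, from -3.27 to 2.39 for GTSF1 and from -2.96 to 1.29 for UCHL1. The averaged change ran from -0.61 to 0.66 for OOEP, from -2.14 to 0.68 for GTSF1, from -1.28 to 1.26 for UCHL1, from -2.19 to 0.24 for HSP90AA1 and from -1.57 to 1.02 for KPNA2.

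The number of arrays, with 2 or 3 pools in a group of the 9, limits the precision; the files used hold no detection calls, so signals near background were not marked. Averaging several probe sets per gene was not run for the 5 genes, each having 1, and the block was not fitted over the 9 arrays.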
